A study of Homo sapiens with 8 samples.

Results

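The retinoblastoma (RB) pocket proteins and the E2F factors were followed here through 10 genes: the pocket protein genes RB1, RBL1 and RBL2, the E2F genes E2F1, E2F2, E2F3, E2F5, E2F7 and E2F8, and TFDP1, which encodes the E2F partner DP1. They were chosen by symbol from 18404 genes measured, and all 10 had a value, each from 1 probe set. The cells were HepG2, an established human liver tumour line that keeps many hepatocyte functions. In the H2O2 group, 4 cultures were given 0.5 mM hydrogen peroxide for 60 minutes as an oxidant that drives cells into senescence, in which division stops for good, and the untreated group was 4 cultures given medium alone. Cells of both groups were then kept for 5 days before the senescent phenotype was tested (the labels do not say when RNA was taken). Each culture was read on 1 single-channel expression array, and the series describes the 4 cultures of a group as biological replicates. All values below are log2 expression, differences are H2O2 minus untreated ± standard error (SE), group levels are means ± SD, and n = 4 arrays per group.

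The pocket proteins bind E2F factors on DNA and hold cell cycle genes silent in resting cells. Cyclin-dependent kinases phosphorylate the pocket proteins late in G1, which frees E2F to switch on the genes of DNA synthesis. E2F1, E2F2 and E2F3 are the activating factors and bind RB itself, E2F5 works mainly as a repressor with the RB relatives p107 (RBL1) and p130 (RBL2), and E2F7 and E2F8 are atypical repressors that need neither a DP partner nor a pocket protein. In arrested cells p130 with E2F4 or E2F5, a DP protein and the MuvB proteins form the DREAM complex, which represses genes of both S phase and mitosis. Several genes of this circuit carry E2F sites in their own promoters and are themselves targets of E2F.

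Promoter sequence is shown for 4 of the genes because their windows hold the letters of an E2F site next to the transcript start, while their transcripts did not all move the same way. The letters searched were the octamers TTTCCCGC, TTTCGCGC, TTTGCCGC and TTTGGCGC on both strands. Capitals mark each match, and each run covers bases -150 to -1 before the transcript start, 5′ to 3′ on the gene's strand, from RefSeq on build GRCh38.p14.
E2F1, chr20:33686386-33686535, minus strand: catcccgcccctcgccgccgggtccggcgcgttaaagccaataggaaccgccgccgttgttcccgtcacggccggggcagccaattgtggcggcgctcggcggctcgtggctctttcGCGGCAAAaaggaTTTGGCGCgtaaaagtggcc
RBL1, chr20:37095998-37096147, minus strand: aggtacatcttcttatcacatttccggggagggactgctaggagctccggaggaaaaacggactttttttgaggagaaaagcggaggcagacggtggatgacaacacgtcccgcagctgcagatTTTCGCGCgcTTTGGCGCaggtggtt
E2F2, chr1:23531234-23531383, minus strand: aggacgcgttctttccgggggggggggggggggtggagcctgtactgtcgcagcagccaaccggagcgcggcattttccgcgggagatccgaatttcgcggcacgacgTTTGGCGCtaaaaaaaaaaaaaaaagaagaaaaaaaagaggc
E2F3, chr6:20401729-20401878, plus strand: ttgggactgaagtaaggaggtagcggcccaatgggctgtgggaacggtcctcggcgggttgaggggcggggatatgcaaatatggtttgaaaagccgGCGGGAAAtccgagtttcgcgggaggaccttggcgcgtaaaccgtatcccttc

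Windows from 250 bases before to 50 bases after a start in the RefSeq promoter table were used for 8 of the 10 genes. No window was used for E2F5 or E2F8. Member windows on chromosome 8 had been removed before this count, so a missing window does not mean that the table lacks one. The shares over all genes and over the target lists below kept that chromosome. The RB1 window lies 172699 bases into the gene and was left out. Of the remaining 7 genes, 5 held an E2F octamer. E2F1 had matches beginning at bases -33 and -20, and RBL1 at bases -26 and -16. E2F2 had 1 at base -42, E2F3 had 1 at base -53 of its first start, and TFDP1 had 1 at base -120. E2F7 and RBL2 had no match to these letters in their windows. Among the 14230 measured genes with a window, 5.51% held an E2F octamer, as did 3.31% of all 35116 windows. The cell cycle homology region (CHR), through which the MuvB protein LIN54 contacts DNA, was searched as TTTGAA and TTCGAA on both strands. It was found at base -65 of the first E2F3 start and at base 25 of the first RBL2 start, and in 17.4% of measured genes with a window. E2F octamers and CHR hexamers did not overlap in these windows. A match to such letters is a description of the sequence and not a site shown to be bound.

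**Figure D1:**
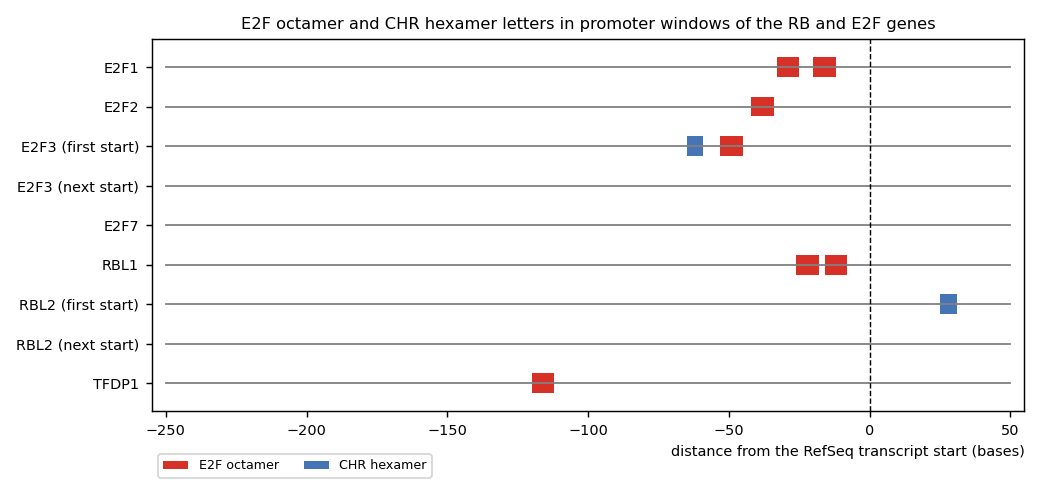
Positions of E2F octamers (red) and CHR hexamers (blue) in promoter windows of 7 RB and E2F genes, by distance in bases from the RefSeq transcript start (dashed line). The E2F matches of E2F1, RBL1, E2F2 and E2F3 begin at base -53 or closer to the start, and that of TFDP1 begins at base -120.

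Treatment lowered the RB relatives, the activators E2F1 and E2F2, the repressor E2F5 and both atypical E2F genes, while RB1 and TFDP1 did not pass the test and E2F3 was higher. Of the 10 genes, 7 fell, 1 rose and 2 were not called (limma, Benjamini-Hochberg adjusted p under 0.05 over all genes). The background is high in this experiment, since 34.0% of all genes tested were called, 14.8% as lower and 19.2% as higher. The median difference was -0.38 over the 10 genes and -0.022 over all genes. Values of the 2 groups did not overlap in 7 of the 10 genes, and in 33.7% of all genes. The falls ran from 0.35 (E2F7) to 0.93 (E2F8) on the log2 scale, and 664 genes of the whole table changed by more than E2F8. These are bulk measurements, in which fewer cells in cycle and less RNA per cell cannot be told apart.

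**Figure D2:**
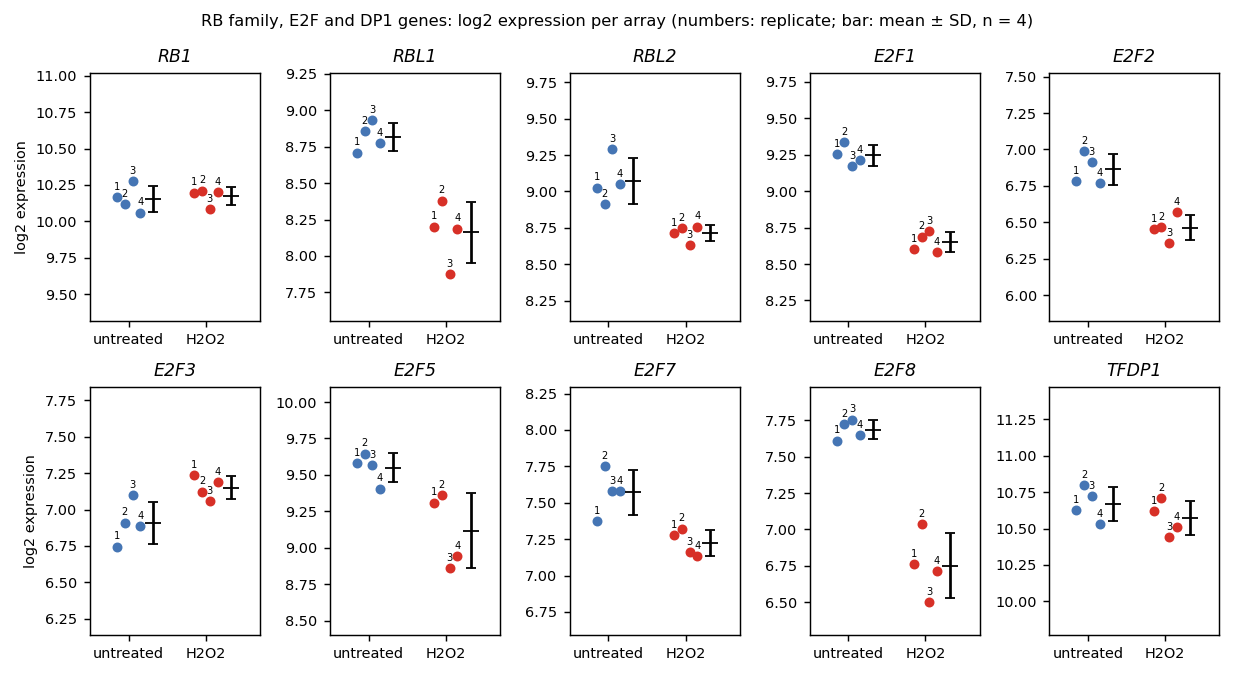
Log2 expression of the 10 RB, E2F and DP1 genes on each array, untreated in blue and H2O2 in red, with the replicate number above each point and the mean ± SD (n = 4) beside it. Every panel spans the same range of log2 units; the groups are apart for RBL1, RBL2, E2F1, E2F2, E2F5, E2F7 and E2F8 and overlap for RB1, E2F3 and TFDP1.

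RB1, the founding pocket protein and tumour suppressor, read 10.17, 10.12, 10.28 and 10.06 on the untreated arrays and 10.20, 10.21, 10.08 and 10.20 on the H2O2 arrays, in the order of replicates 1 to 4, which is kept below. The groups overlap, and the lowest treated array is replicate 3. The difference was 0.019 ± 0.069 (limma adjusted p = 0.874), with a 95% interval from -0.13 to 0.17. Its sign turned without untreated replicate 4 (-0.013). The RB transcript says nothing of the protein's phosphorylation, which an array does not measure.

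RBL1 encodes p107, a pocket protein made mainly by cycling cells and itself an E2F target. It read 8.71, 8.86, 8.93 and 8.77 in untreated cells and 8.20, 8.38, 7.87 and 8.19 in treated cells. All treated arrays lay below all untreated arrays, with replicate 3 the lowest. RBL1 fell by 0.66 ± 0.098 (limma adjusted p = 0.000121), and on the linear scale its level decreased by 36.6%. RBL2 encodes p130, the pocket protein that gathers in resting cells and anchors DREAM. It read 9.03, 8.92, 9.29 and 9.05 untreated and 8.72, 8.75, 8.63 and 8.76 after H2O2. The groups do not overlap, though untreated replicate 2 is only 0.157 above the highest treated array. RBL2 fell by 0.36 ± 0.081 (limma adjusted p = 0.00342).

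The pocket protein genes changed unequally. Within each array, the change of one was set against that of another, which removes any shift common to an array. RB1 minus RBL1 rose by 0.68 ± 0.089 and RB1 minus RBL2 by 0.38 ± 0.053. RBL1 minus RBL2 fell by 0.30 ± 0.10. In all 3 contrasts the groups did not overlap, and each gave an exact two-sided permutation p = 0.0286, the smallest that 4 against 4 arrays allow, or p = 0.0333 adjusted over the 7 pairs compared. RBL1 thus fell more than RBL2, and both fell relative to RB1.

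**Figure D3:**
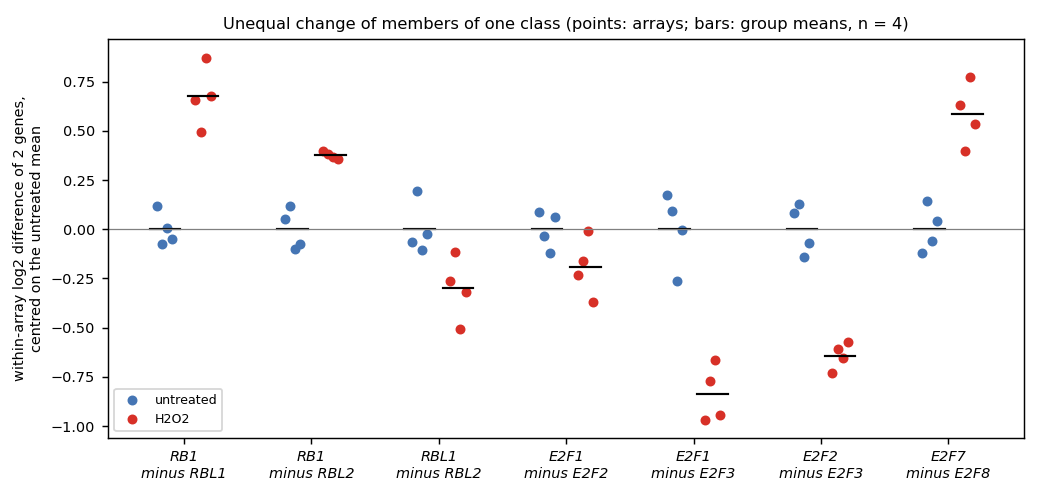
Within-array log2 difference between 2 genes of one class, centred on the untreated mean, for 7 pairs; points are arrays, untreated in blue and H2O2 in red, and bars are group means (n = 4). The groups are apart in 6 pairs and overlap for E2F1 minus E2F2.

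The activating factors split. E2F1, the activator best known for driving S phase entry and, in excess, cell death, read 9.25, 9.34, 9.17 and 9.22 in untreated cells and 8.60, 8.69, 8.73 and 8.58 in treated cells. The gap between the groups (0.446) is several times the SD of either group (0.071 untreated, 0.069 H2O2). E2F1 fell by 0.60 ± 0.067 (limma adjusted p = 1.06e-05), so its linear level decreased by 33.8%. E2F2, a close relative with overlapping functions, read 6.78, 6.99, 6.91 and 6.77 untreated and 6.46, 6.47, 6.36 and 6.57 treated. It fell by 0.40 ± 0.075 (limma adjusted p = 0.000756), again with no overlap.

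E2F3, the third activator, which has a long and a short form from separate starts, went the other way. It read 6.75, 6.91, 7.10 and 6.88 in untreated cells and 7.24, 7.12, 7.06 and 7.19 in treated cells, so the highest untreated array lies above the lowest treated one. E2F3 rose by 0.24 ± 0.081 (limma adjusted p = 0.0329), the weakest call among the 10 genes. The call was lost with the replicate number as a block (adjusted p = 0.0769). It was also lost without untreated replicate 1 (0.19), 2 (0.24) or 4 (0.23), or without H2O2 replicate 1 (0.21), 2 (0.25) or 4 (0.23), at adjusted p = 0.0516 to 0.119. The direction held each time. The deposited values give 1 probe set for E2F3 and do not separate its forms.

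Pairs with E2F3 were compared within each array. E2F1 minus E2F3 fell by 0.84 ± 0.12 and E2F2 minus E2F3 by 0.64 ± 0.072, both with no overlap and p = 0.0333 in the exact permutation test adjusted over the 7 pairs. E2F1 minus E2F2 differed by -0.19 ± 0.089 (exact permutation, adjusted p = 0.0857), so E2F1 and E2F2 were not shown to fall by different amounts.

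E2F5, a factor that lacks a strong activating role and pairs with p107 and p130, read 9.58, 9.65, 9.57 and 9.41 in untreated cells and 9.31, 9.36, 8.86 and 8.94 in treated cells. The treated arrays fall into a higher pair (replicates 1 and 2) and a lower pair (replicates 3 and 4), and the SD grew from 0.102 to 0.255. The groups are only 0.044 apart. E2F5 fell by 0.43 ± 0.11 (limma adjusted p = 0.00689).

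The atypical repressors both fell, by different amounts. E2F8, which represses E2F1 and other S phase genes and whose transcript peaks in S phase, read 7.61, 7.72, 7.75 and 7.65 untreated and 6.76, 7.04, 6.50 and 6.71 treated. No other member had as wide a gap between the groups (0.573). E2F8 fell by 0.93 ± 0.097 (limma adjusted p = 5.25e-06), the largest fall of the 10, and its linear level decreased by 47.6%. E2F7, its close relative and also a known p53 target, read 7.38, 7.75, 7.58 and 7.58 untreated and 7.28, 7.32, 7.16 and 7.14 treated. The groups are 0.054 apart, with untreated replicate 1 next to H2O2 replicate 2. E2F7 fell by 0.35 ± 0.084 (limma adjusted p = 0.0051). E2F7 minus E2F8 rose by 0.58 ± 0.099 (exact permutation, p = 0.0333 adjusted over the 7 pairs), so E2F8 fell more.

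TFDP1 encodes DP1, the partner through which E2F1 to E2F6 bind DNA. It read 10.63, 10.80, 10.72 and 10.53 in untreated cells and 10.62, 10.71, 10.44 and 10.51 in treated cells. The groups overlap over most of their range. The difference was -0.098 ± 0.081 (limma adjusted p = 0.399), with a 95% interval from -0.27 to 0.076.

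Treated arrays did not spread alike in all genes. Of the 7 genes that fell, 5 had their lowest treated value in H2O2 replicate 3 and 2 in H2O2 replicate 4. Of the same 7, 4 had their highest treated value in H2O2 replicate 2. E2F1 instead had its highest treated value in H2O2 replicate 3 (8.73), and RBL2 and E2F2 had theirs in H2O2 replicate 4. The mean level of 39 G1/S target genes of E2F was also lowest in H2O2 replicate 3 (8.26) and highest in H2O2 replicate 2 (8.58), and that of 30 G2/M genes ran from 8.14 to 8.69 between the same arrays. Without H2O2 replicate 3 the counts of the 10 genes stayed at 7 lower and 1 higher.

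The kinases and cyclins that phosphorylate the pocket proteins went both ways. Of 10, 3 rose, 3 fell and 4 were not called, and their median difference was 0.0035. All 3 D cyclins, which start RB phosphorylation in early G1, rose. CCND2 read 6.56, 6.41, 6.78 and 6.68 untreated and 8.87, 8.71, 8.68 and 8.80 treated, a rise of 2.16 ± 0.085 (limma adjusted p = 4.79e-10). CCND1 rose by 0.91 ± 0.082 and CCND3 by 0.93 ± 0.083. Their partner kinases CDK4 (0.047 ± 0.073) and CDK6 (-0.14 ± 0.090) were not called, nor were the E cyclins CCNE1 (0.084 ± 0.078) and CCNE2 (-0.040 ± 0.19), classic E2F targets that complete RB phosphorylation. The later acting CDK2 fell by 0.77 ± 0.097, CCNA2 by 1.17 ± 0.12 and CDK1 by 1.14 ± 0.14.

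Of 6 measured inhibitors of these kinases, 3 rose, 1 fell and 2 were not called (median difference 0.45). The count of falls was 2 without H2O2 replicate 3, where CDKN2D was called, and 3 with array weights, where CDKN1C and CDKN2D were called. CDKN1A, the p53 target p21 that blocks CDK2, read 8.44, 8.55, 8.55 and 8.59 untreated and 10.91, 10.83, 10.99 and 10.84 treated. That is a rise of 2.36 ± 0.067 (limma adjusted p = 3.20e-11), with treated arrays close together. CDKN2B (1.43 ± 0.078) and CDKN2A (1.02 ± 0.11) rose as well, and CDKN1B fell by 0.81 ± 0.076. Proteins of CDKN2B and CDKN2A hold CDK4 and CDK6, but the value of CDKN2A does not separate the transcripts of that gene. CDKN1C (-0.12 ± 0.070) and CDKN2D (-0.16 ± 0.098) were not called.

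**Figure D4:**
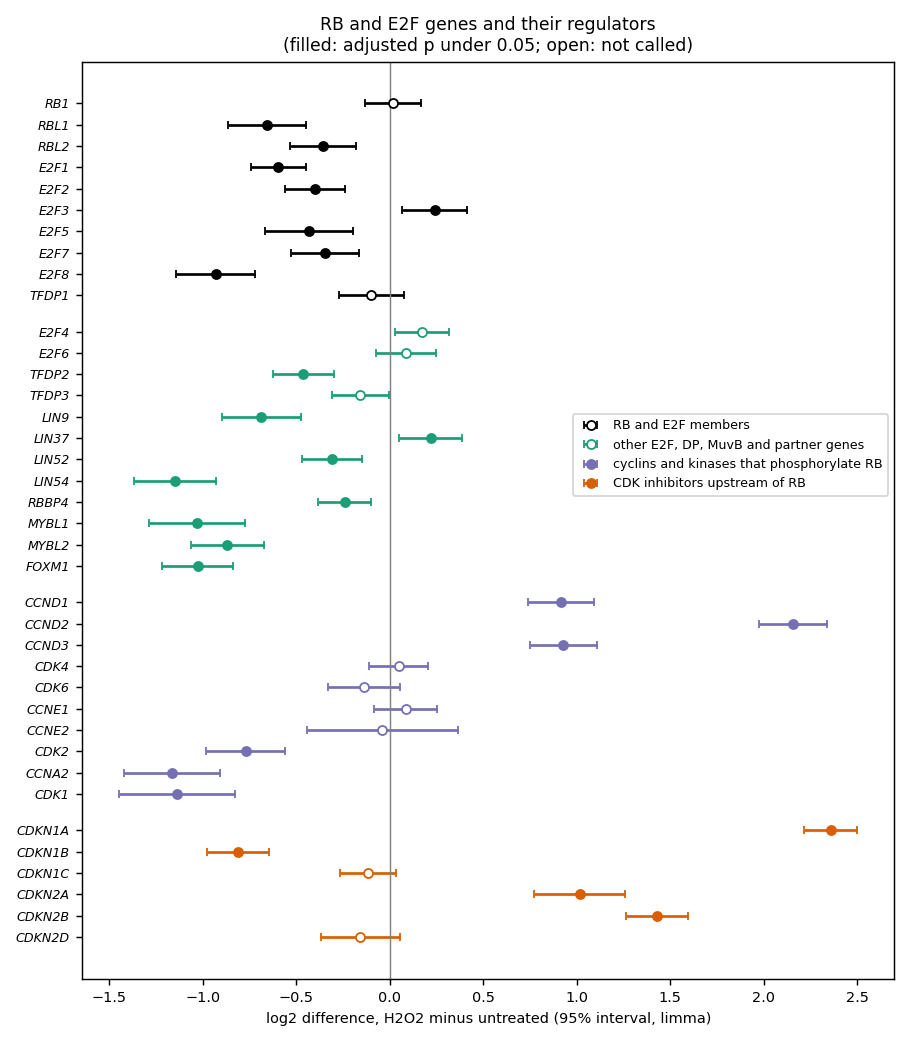
Log2 difference (H2O2 minus untreated) with its 95% interval from limma for the 10 RB and E2F genes (black), 12 related factors (green), 10 cyclins and kinases (purple) and 6 CDK inhibitors (orange); filled points passed an adjusted p of 0.05. The D cyclins, CDKN1A, CDKN2B and CDKN2A lie far to the right while most RB, E2F and MuvB genes lie left of 0.

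Among 12 other factors of the E2F, DP and DREAM machinery, 8 fell, 1 rose and 3 were not called (median difference -0.39). The repressors E2F4 (0.17 ± 0.067, adjusted p = 0.0666) and E2F6 (0.086 ± 0.074, adjusted p = 0.419) were not called in limma. E2F4 passed in 4 of 15 alternative settings. TFDP2, the other DP partner, fell by 0.46 ± 0.076, and TFDP3 (-0.16 ± 0.071) was not called. Of the MuvB core, LIN54 fell by 1.15 ± 0.10, LIN9 by 0.69 ± 0.099, LIN52 by 0.31 ± 0.075 and RBBP4 by 0.24 ± 0.066. LIN37, the subunit needed for repression by DREAM, gave 0.22 ± 0.079 (adjusted p = 0.0454), a rise whose call was lost in 9 of 15 alternative settings, with the direction kept. Leaving out any 1 array other than untreated replicate 2 lost it. MYBL2, which replaces the pocket protein on MuvB in S phase, fell by 0.87 ± 0.090, FOXM1, which joins it in G2, by 1.03 ± 0.088, and MYBL1 by 1.03 ± 0.12.

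Targets of the circuit were lower on both sides of the cycle. Of 39 measured G1/S targets of E2F, 36 fell, 0 rose and 3 were not called (limma), and their median difference was -0.73. PRIM1, a primase subunit, fell by 1.11 ± 0.083, the helicase subunit MCM2 by 1.07 ± 0.092 and ATAD2, a chromatin ATPase, by 0.99 ± 0.082. The 3 not called were PCNA (0.14 ± 0.090), the histone mRNA binding protein SLBP (-0.22 ± 0.080) and TIPIN (-0.060 ± 0.090). This list leaves out the E2F targets CCNE1 and CCNE2, which were counted with the cyclins above and were not called. All 30 genes listed for G2/M, which DREAM represses and MYBL2 and FOXM1 activate, fell (limma), with a median difference of -1.16. NUF2, a kinetochore protein, fell by 1.67 ± 0.17, the spindle motor KIF11 by 1.60 ± 0.16 and CENPE by 1.48 ± 0.16. Over all alternatives that kept dim genes, 34 to 37 of the G1/S list and 30 of the G2/M list were called lower and 0 higher in limma.

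The letters of the promoters differ between these lists. An E2F octamer stood in the window of 23 of 36 G1/S genes (63.9%) and of 1 of 25 G2/M genes (4.0%). A CHR hexamer stood in 3 of 36 G1/S genes (8.33%) and in 19 of 25 G2/M genes (76.0%). The windows of E2F1, RBL1, E2F2 and TFDP1 hold the octamer and no CHR hexamer, and the first E2F3 window holds both. TFDP1 was not called (-0.098 ± 0.081, limma adjusted p = 0.399), so the letters did not go with a call in every member. These shares describe lists drawn up as known targets, for which such letters are part of what made them known.

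**Figure D5:**
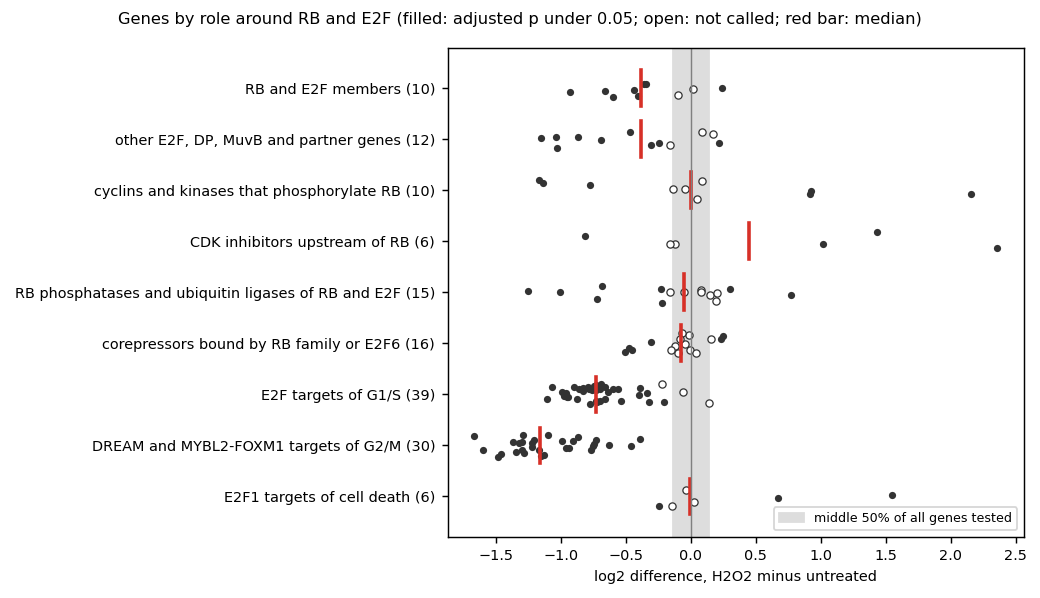
Log2 differences (H2O2 minus untreated) of single genes by role, with the number measured in brackets; filled points passed an adjusted p of 0.05, red bars are medians and the grey band holds the middle 50% of all genes tested. The G1/S (-0.73) and G2/M (-1.16) medians lie outside the band, as does the median of the RB and E2F genes (-0.38).

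Phosphatase and ubiquitin ligase genes listed around RB and E2F were mixed. The list also holds cofactors and an inhibitor of such enzymes, so not every gene in it acts on RB or E2F proteins. Over all genes tested 14.8% were called lower and 19.2% higher. Of the 15 listed genes, 6 fell, 2 rose and 7 were not called (median difference -0.052). The count of rises was 4 with array weights, with trended robust moderation or with the filter on dim genes. SKP2, the ligase subunit that removes CDKN1B protein and is an E2F target, fell by 1.25 ± 0.11, its cofactor CKS1B by 0.72 ± 0.12 and FBXO5, an inhibitor of the anaphase promoting complex, by 1.01 ± 0.15. MDM2, a ligase of p53 that also targets RB, rose by 0.77 ± 0.065, and PPP2CA, a phosphatase catalytic subunit, by 0.30 ± 0.066.

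For each of the 10 genes, the gene most like it over the 8 arrays was found by Pearson's r of log2 values among all genes tested. These r values are descriptions, carry mostly the difference between the groups where there is one, and come from 8 arrays that all genes share. E2F8 was closest to FUBP1, which encodes a DNA-binding regulator of MYC (r = 0.998), E2F1 to EPO, the hormone erythropoietin (r = 0.997), and E2F5 to the ribosomal protein gene RPS23 (r = 0.995), whose value is uncertain because such genes have near-identical copies. RBL1 was closest to the mitotic kinesin KIF20B (r = 0.994), RBL2 to NHLRC2 (r = 0.993), E2F7 to FEM1B, a ubiquitin ligase subunit (r = 0.982), and E2F2 to the corepressor CTBP2 (r = 0.981). E2F3 was closest to the protocadherin PCDHB3 (r = 0.980), RB1 to AGGF1 (r = 0.982) and TFDP1 to the RNA cleavage factor CSTF1 (r = 0.981). The number of genes above r = 0.95 was 741 for E2F8, 469 for RBL1 and 378 for E2F1. It was 231 for RBL2, 171 for E2F5 and 46 for E2F2, then 18 for E2F7, 16 for E2F3, 11 for RB1 and 8 for TFDP1.

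The labelled cell type was checked against its markers. Counts of markers called stand beside 19.2% called higher and 14.8% called lower over all genes tested. The 7 measured hepatocyte markers had untreated means from 11.05 to 12.68, far above the median of all genes (7.52), and their mean level was 11.92 to 11.98 in untreated arrays and 11.52 to 11.80 in H2O2 arrays, with 4 lower and 1 higher. The higher one, TTR (0.26 ± 0.084), lost its call without untreated replicate 3 or 4 or H2O2 replicate 1 or 2 (limma adjusted p up to 0.0852), which left 0 higher. The largest falls were those of TF (-0.90), FGB and APOA1, and none of the 4 falls lost its call in 15 alternatives. Of 8 fibroblast and stellate markers 2 rose (ACTA2 by 1.50 ± 0.072 and COL1A1 by 0.41 ± 0.076) and 1 fell (PDGFRB, by 1.15 ± 0.088), with mean levels of 6.64 to 6.74 and 6.68 to 6.93. Of 7 leukocyte markers 2 rose (CD68 by 0.80 ± 0.071 and CD14 by 0.27 ± 0.064), with mean levels of 7.41 to 7.47 and 7.51 to 7.60. Of 8 endothelial markers 1 fell (CDH5, by 0.25 ± 0.073), with mean levels of 5.81 to 5.93 and 5.72 to 5.97. CDH5 was not called without untreated replicate 4 or H2O2 replicate 1 (limma adjusted p up to 0.0713), which left 0 lower, and 3 endothelial markers were lower without H2O2 replicate 3. With all probe sets of a gene averaged, PECAM1 was called higher (limma adjusted p = 0.0067), which gave 1 higher. Of these other markers, 5 of 8 fibroblast and stellate, 5 of 7 leukocyte and 8 of 8 endothelial genes had a mean over all arrays below the median of all genes. The pan-leukocyte marker PTPRC (4.23 untreated, 4.09 treated) and the fibroblast marker DCN (4.30 and 4.23) were among them. Above the median stood LYZ (12.90 untreated, 12.83 treated) and CD68 (9.56 and 10.36) of the leukocyte list. Of the fibroblast and stellate list, ACTA2 (10.05 and 11.55), PDGFRB (8.13 and 6.97) and COL1A1 (7.58 and 7.99) stood above it. The part of these markers in the changes above was not tested.

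Array medians lay between 6.85 and 6.93, and r over all probe sets was 0.990 to 0.996 within a group and 0.979 to 0.985 between groups. The mean levels of E2F2, E2F3, E2F7 and E2F8 lay below the median of all genes, where no detection call is at hand, so the size of their fold is less certain.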

How the data were processed

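The authors deposited log2 expression values for each probe set on each array. Sources used here do not give their probe summary or normalization, and the log2 scale was inferred from the values. Per the submitters' processing notes limma was used, in a role not stated. Of 32321 probe sets, the platform annotation gives 19158 exactly 1 symbol, 1388 several and 11775 none. The former cover 18404 genes, of which 637 had more than 1 probe set and were read from the brightest by mean over the 8 arrays. One linear model with a mean per group was fitted in limma 3.58.1 (R 4.3.3) with empirical Bayes moderation, and p-values were Benjamini-Hochberg adjusted over all genes. The model was also run on simulated independent normal values with far fewer changed genes than were called here. That run checks the code and not how well the model suits these data. Pairs of members were compared by exact two-sided permutation over arrays (scipy 1.17.1, Python 3.11.15).

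The members and lists were chosen with earlier results of these data known. All 10 members are named. Each other list gives at most 3 called rises and 3 called falls by size. Also named are all genes of the lists of related factors, cyclins and kinases, and inhibitors, and the gene most like each member. PCNA, SLBP, TIPIN, PTPRC, DCN, LYZ and PECAM1 were named after their values were seen. Alternatives were the replicate block, quantile normalization, median centring, a filter on dim genes (mean log2 of at least 7.52), the mean of all probe sets, array weights, trended robust moderation and leaving out each array. Same-numbered arrays did not deviate together (r = -0.068, 0.060, -0.25 and 0.094 for numbers 1 to 4), so the main model has no block. The number of arrays limits the precision.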

Additional observations from a re-analysis of the deposited data

Results flagged for a closer look

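RB1 in H2O2 replicate 3 (10.08) lay apart from the other treated arrays (10.20 to 10.21), with 0.889 of the group's range in the gap to its nearest neighbour, above Dixon's 95% critical value. It was 1 of 20 groups of 4 arrays examined in this way, and chance flags about 1 in 20.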

How the results depend on the processing

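Over 15 alternatives, all 7 members called lower kept their direction and their call wherever they were tested. With the replicate number as a block, 7 members were called lower and 0 higher, since E2F3 (0.24) lost its call at adjusted p = 0.0769; the block changed no other member's call. Leaving out single arrays gave 0 to 1 members higher and 7 lower, E2F3 from 0.19 to 0.30 and RB1 from -0.013 to 0.059. The filter on dim genes kept 6 members, of which 4 were lower and 0 higher, because it removed E2F2, E2F3, E2F7 and E2F8. Over all genes, array weights gave 4111 lower calls against 2732, with 4262 higher against 3527; the cause was not tested. Of the member pairs, 6 passed under quantile normalization, as in the main test. Median centring cancels in a within-array difference, so it could not change a pair. Each member has 1 probe set, so the mean of all probe sets left the values of members and pairs unchanged. Without 1 array, the exact test of a pair cannot reach the threshold, so only its value was taken. Signal over background is unknown, which limits the dim genes.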

Other observations

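Genes through which E2F1 is known to promote cell death went both ways. Of 6 measured, 2 rose, 1 fell and 3 were not called, with a median difference of -0.0053. Over all genes tested 19.2% were called higher and 14.8% lower, so counts this small say little of these genes as a set. PMAIP1, which encodes the killer protein NOXA and is also a p53 target, rose by 1.55 ± 0.097 (limma adjusted p = 4.15e-08), and CASP8, the initiator caspase of death receptors, by 0.67 ± 0.073. BCL2L11, another killer protein, fell by 0.24 ± 0.070.

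Of 16 measured corepressors that RB family proteins or E2F6 recruit, 4 fell, 2 rose and 10 were not called (median difference -0.072). Calls were about as common over all genes tested (34.0%, with 14.8% lower and 19.2% higher). The histone H3 lysine methyltransferase SUV39H1 fell by 0.50 ± 0.065 and its relative SUV39H2 fell by 0.48 ± 0.085. SIN3A, the scaffold of a histone deacetylase complex, fell by 0.45 ± 0.068. The chromatin remodeller SMARCA4 gave 0.25 ± 0.079 (limma adjusted p = 0.0257), a call lost in 4 of 15 alternatives, and the Polycomb subunit RING1 rose by 0.23 ± 0.061, a call lost when all its probe sets were averaged.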
